A study of Homo sapiens with 9 samples.

Results

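The comparison described here set A375 cells that had been exposed to vemurafenib and then released from the drug against A375 cells in ordinary culture. A375 is an established human melanoma line that carries the BRAF V600E mutation, and vemurafenib is an inhibitor of the mutant BRAF kinase. The drug group received 10 µM vemurafenib for 3 days, went back to ordinary medium and was collected on day 7 after the treatment, and the control group was kept in ordinary medium and collected alongside it. Each group had 3 RNA-seq libraries, which together made up 6 of the 9 libraries of the series. The other 3 libraries came from A375 cells that received 2 µM cisplatin for 1 day and were likewise collected on day 7. All groups were samples of 1 cell line, so any difference describes that line. The labels do not say whether libraries of a group came from separate cultures, so the p-values measure the spread between these libraries, which may be technical.

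Melanoma cells descend from the neural crest, a transient population of embryonic cells that also gives rise to melanocytes and Schwann cells. Mutant BRAF holds the MAP kinase cascade active, and that cascade drives growth, feedback and metabolic genes. Cells exposed to a BRAF inhibitor are known to slow or stop dividing and to move along the range of states between pigmented and neural crest-like cells.

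Of 18430 genes in the table, 13989 passed the filter on low counts and were tested. After vemurafenib 3082 genes were higher (22.0% of those tested) and 3200 were lower (22.9%), 44.9% in all, at a Benjamini-Hochberg adjusted p under 0.05 in the quasi-likelihood test of edgeR. A change of at least 2-fold was reached by 971 of the higher genes (6.94% of those tested) and by 1407 of the lower genes (10.1%). The median log2 change over all tested genes was 0.01. Scaling by total counts in place of TMM moved that median to 0.11, and the share of called genes that were higher from 49.1% to 60%. That share was 59.5% for log2(TPM + 1) values. Library totals lay between 14481020 and 16038475 estimated counts. Levels below are counts per 1000000 (CPM) on TMM-scaled library totals, listed for replicates 1, 2 and 3, and changes are log2 differences of vemurafenib minus control with their standard error. A gene is said to have risen or fallen only where it passed this test. Counts of rises and falls in a list are to be read beside the 22.0% and 22.9% of all tested genes.

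The first vemurafenib library stood apart from the other two. Across 13511 genes with an effective length, the log2 deviation of that library from the rest of its group ran with transcript length at a Spearman rho of -0.6, against 0.53 and 0.44 for the second and the third vemurafenib libraries and -0.16 to 0.17 for the other 6. These are correlations across genes, which are not independent replicates. The second and the third library were each set against a mean that includes the first. Their values are therefore not independent of it and do not show separate trends. Without the first vemurafenib library, 3716 genes were higher (26.2%) and 3956 were lower (27.9%) of 14168 tested. Of the genes tested in both fits, 2902 were higher and 3107 lower with and without it, 180 higher and 93 lower calls were lost, 801 and 807 were gained, and no call changed sign. The calls lost and gained followed length. Among the shortest of 5 equal groups of genes by transcript length (212 to 1640 bases), 15.6% were lower with all libraries and 28% without it, while among the longest (4882 to 29223 bases) 19.5% were higher with all libraries and 32.4% without it. The plot of gene lists shows the counts both ways.

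**Figure D1:**
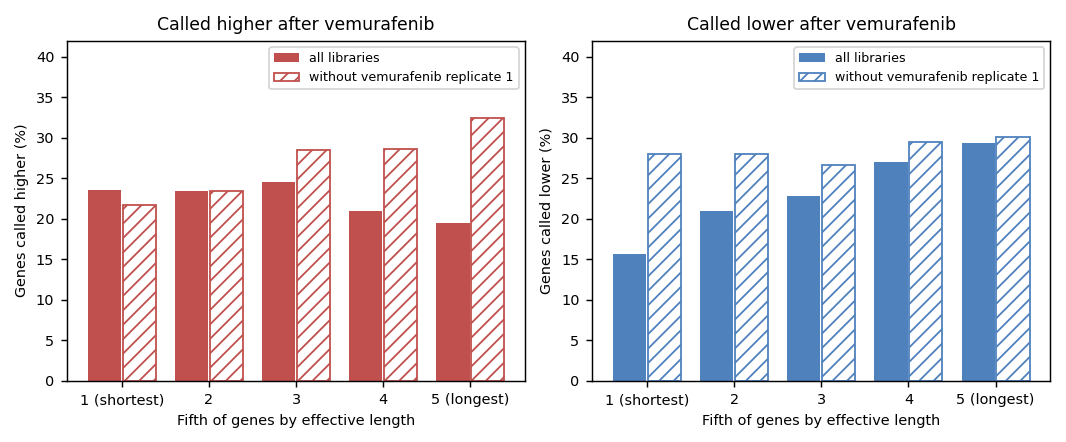
Share of genes called higher (left) and lower (right) after vemurafenib, in percent, for 5 equal groups of 13511 genes by effective length; solid bars use all libraries and hatched bars leave out vemurafenib replicate 1. Without that library the share called lower among the shortest is 28% in place of 15.6%, and the share called higher among the longest is 32.4% in place of 19.5%.

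The identity of the cells was checked on marker lists. The 12 melanoma lineage markers summed to 3360 to 3930 CPM in the control libraries and to 2950 to 3170 CPM after vemurafenib, with 2 of the 12, TYR and MLANA, under 1 CPM. Per length the order was the other way, with a summed TPM of 2107 to 2359 in control and 2674 to 2806 after vemurafenib. Of the 10 markers tested 4 rose (40.0%) and 1 fell (10.0%). The 1 that fell, CSPG4, held a large part of the summed CPM in control, and its levels are given below among the proteoglycans. SOX10, the transcription factor of the neural crest and melanocyte lineage, stood at 1130.1, 1069 and 982.1 CPM in the control libraries and at 1189.9, 1085 and 1004 CPM after vemurafenib. Its log2 change was 0.04 with a standard error of 0.11, and it did not pass the test. Markers of other cell types stayed low in both groups. Fibroblast markers summed to 29 to 33.4 CPM in control and 32 to 43.3 CPM after vemurafenib with THY1 at 0, keratinocyte markers to 36.3 to 41.2 and 17.5 to 26.6 CPM with CDH1 at 0, endothelial markers to 22.4 to 27.4 and 15.9 to 33.5 CPM with CDH5 at 0, and blood and macrophage markers to 88.8 to 126 and 107 to 122 CPM. These are bulk libraries, in which more cells of one state and more RNA per cell cannot be told apart.

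**Figure D2:**
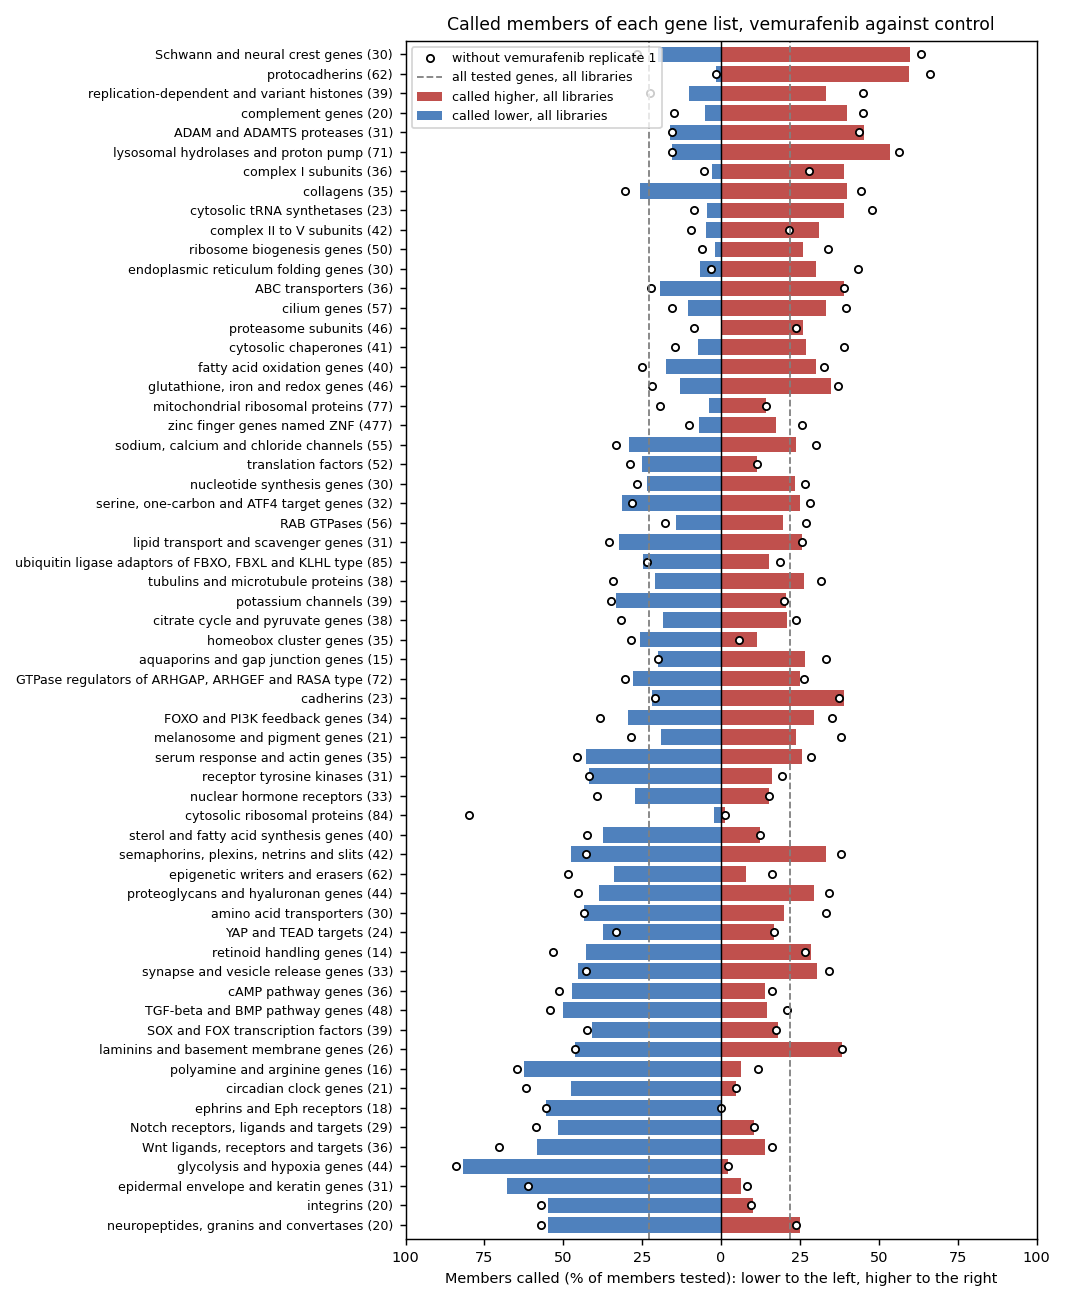
Members of each gene list called higher (red, right) and lower (blue, left) after vemurafenib, in percent of the members tested, which are counted in parentheses; open circles leave out vemurafenib replicate 1 and dashed lines mark all tested genes (22.0% higher and 22.9% lower). Schwann and protocadherin genes stand at the top by median change, and neuropeptide, integrin, epidermal and glycolysis genes at the foot. The cytosolic ribosomal proteins have the widest distance between bar and circle.

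Genes of Schwann and neural crest cells were higher after vemurafenib. Of 30 tested members 18 rose and 6 fell, and the median log2 change was 1.25 against 0.01 for all tested genes. Without the first vemurafenib library the counts were 19 and 8, with a median of 1.21. The low-affinity neurotrophin receptor NGFR, which marks neural crest cells, was at 6.98, 9.42 and 11.2 CPM in the control libraries and at 207.6, 190.03 and 160.3 CPM after vemurafenib. Every vemurafenib library exceeded every control library, and the log2 change was 4.34 (standard error 0.19, adjusted p = 4.59e-08). S100B, a calcium-binding protein of Schwann cells and melanocytes, rose from 15.1, 16.3 and 13.9 CPM to 328.9, 230.7 and 244.5 CPM, also without overlap (log2 change 4.15, standard error 0.18).

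Transcription factors of the early crest and glial receptors were among the members that rose. FOXD3, a crest specifier that represses melanocyte genes, was at 11.3, 6.97 and 5.91 CPM in control and 101.3, 77.5 and 40.3 CPM after vemurafenib (log2 change 3.18). SOX2, a factor of immature Schwann cells, had a log2 change of 1.68 (standard error 0.16), and CDH19, a cadherin of Schwann cell precursors, one of 2.19 (standard error 0.19). GFRA1, a co-receptor for glial cell line-derived neurotrophic factor, rose from 0.913, 0.863 and 0.513 CPM to 16.1, 13.5 and 11.7 CPM (log2 change 4.16). Its paralogue GFRA2 had 3 counts over the control group and 109 over the vemurafenib group, a ratio of 35 with a 95% counting interval of 11.7 to 172. The water channel AQP4 of glia had 0 counts in the control group and 292 after vemurafenib, which makes it at least 93.7-fold higher.

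The lineage list did not rise as a whole. EGR2, the factor that starts myelination and an early response gene of growth signals, fell from 21.2, 17 and 15 CPM to 1.56, 2.74 and 1.29 CPM (log2 change -3.24, adjusted p = 2.32e-05). The neural adhesion molecule NCAM1 fell by 2.26 on the log2 scale, and SOX5 and the intermediate filament nestin, NES, had changes of -0.95 and -0.88. ERBB3, the neuregulin receptor of the Schwann lineage, was at 578.6, 579.4 and 527.0 CPM in control and 521.2, 648.9 and 638.2 CPM after vemurafenib, overlapping ranges that did not pass the test (log2 change 0.10, standard error 0.11). Without the first vemurafenib library ERBB3 passed narrowly (log2 change 0.20, edgeR adjusted p = 0.0489).

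**Figure D3:**
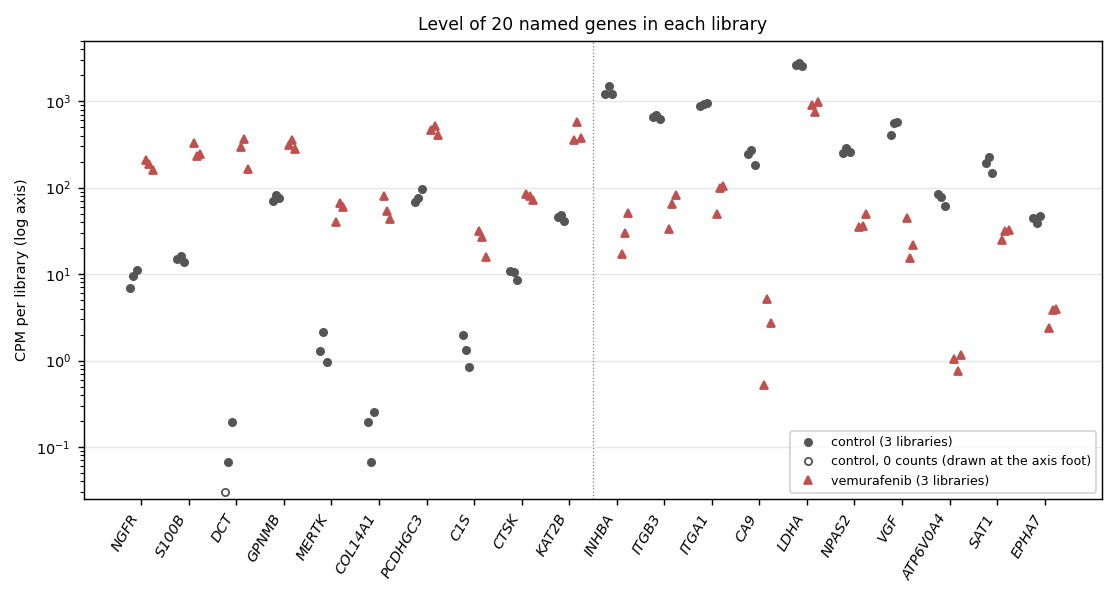
CPM in each of 3 control (grey circles) and 3 vemurafenib (red triangles) libraries for 20 named genes on a log axis, with 10 that rose to the left of the dotted line and 10 that fell to its right. In none of the 20, chosen for the text, do the 2 groups overlap (52.8% of all tested genes do not), and CA9 has the widest spread among vemurafenib libraries, from 0.52 to 5.11 CPM.

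Pigment genes were called about as often as all tested genes, with steep changes in single members. Of 21 tested members 5 rose (23.8%) and 4 fell (19.0%), with a median of -0.07, and without the first vemurafenib library 8 rose and 6 fell. DCT, dopachrome tautomerase of the melanin pathway, was almost silent in the control libraries at 0, 0.0664 and 0.193 CPM and stood at 293.4, 367.3 and 164.6 CPM after vemurafenib. The fitted log2 change of 11.50 rests on a few control counts, and without control replicate 3 it was 12.69. GPNMB, a melanosomal glycoprotein, rose from 70.5, 81.4 and 75.4 CPM to 314.0, 357.7 and 282.4 CPM (log2 change 2.07, standard error 0.12). MITF, the master regulator of melanocytes, rose from 37.6, 34.8 and 35 CPM to 58.6, 96.2 and 91.2 CPM, a smaller change of 1.20. The melanosome matrix protein PMEL stayed at 1.56, 1.99 and 1.6 CPM in control and 1.95, 1.56 and 1.53 CPM after vemurafenib and did not pass (log2 change -0.04, standard error 0.26). LEF1, a Wnt effector that also acts in melanocytes, fell from 69.4, 72.4 and 82.2 CPM to 13.3, 13.3 and 19.2 CPM (log2 change -2.29).

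MITF is known to bind E-box letters. The motif searched was CATGTG on both strands, that is CATGTG or its reverse complement CACATG, within the 250 bases upstream of each start in RefSeq's GRCh38.p14 promoter table. It was present in 8.96% of the 11320 tested genes with an entry, in 9.42% of all 35116 promoter windows, and in 8 of the 18 pigment genes with an entry (44.4%). The share was 10.5% among all genes called higher, 9.84% among those called lower and 7.99% among those not called. A gene counted if any of its windows matched, so shares of genes and of windows are unlike units. A match is a description of letters and not a binding site. The windows of GPNMB (chr7:23246525-23246774, plus strand) and DCT (chr13:94479683-94479932, minus strand) are printed because both genes rose and each holds 2 matches. For each gene the first window that held a match was taken. Capitals mark the matches, at 123 and 62 bases upstream of the start in GPNMB and at 215 and 134 bases upstream in DCT.
GPNMB: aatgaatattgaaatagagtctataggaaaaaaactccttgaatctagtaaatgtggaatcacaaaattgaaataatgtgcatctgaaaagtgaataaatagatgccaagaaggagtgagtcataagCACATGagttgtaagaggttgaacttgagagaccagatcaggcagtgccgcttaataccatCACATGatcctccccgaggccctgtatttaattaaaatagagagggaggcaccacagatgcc
DCT: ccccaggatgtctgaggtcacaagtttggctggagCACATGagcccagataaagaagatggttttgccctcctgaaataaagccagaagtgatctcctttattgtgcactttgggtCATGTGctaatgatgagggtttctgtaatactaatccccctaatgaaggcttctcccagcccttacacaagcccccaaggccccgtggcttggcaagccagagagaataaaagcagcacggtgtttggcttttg

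Among neuropeptides, granins and the convertases that process them falls outnumbered rises. Of 20 tested members 5 rose and 11 fell, with a median of -1.60, and without the first vemurafenib library 5 rose and 12 fell. Of the 5 that rose, 3 were convertases. PCSK2, a neuroendocrine proprotein convertase, had 2 counts over the control group and 2378 over the vemurafenib group, and stood at 55.9, 50.5 and 43.3 CPM after vemurafenib. PCSK5 rose from 1.63, 2.52 and 1.73 CPM to 27.5, 37.7 and 21.5 CPM, and PCSK6 from 1.3, 1.39 and 1.54 CPM to 12.9, 15.1 and 12.3 CPM. TAC1, the precursor of substance P, rose from 0.326, 0.332 and 0.834 CPM to 121.7, 99.7 and 70.01 CPM without overlap (log2 change 7.58, adjusted p = 4.48e-08). VGF, a granin-like precursor induced by growth factors, went the other way, from 406.3, 560.4 and 576.9 CPM to 44.4, 15.5 and 21.7 CPM (log2 change -4.24, standard error 0.33).

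Synapse and vesicle release genes showed 10 rises and 15 falls among 33 tested members, with a median of -0.32. Release components were among the lower members. The SNARE protein STX1A fell from 121.8, 112.3 and 116.2 CPM to 12.9, 9.48 and 18.2 CPM (log2 change -3.11), and UNC13A, which primes vesicles, had a log2 change of -1.71 with 5.66, 6.05 and 5.63 CPM left after vemurafenib. The kainate receptor subunit GRIK2 rose from 34, 35.8 and 39 CPM to 144.8, 245.3 and 167.5 CPM (log2 change 2.36).

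Epidermal envelope and keratin genes fell. Of 80 genes in this list only 31 passed the filter, and of those 2 rose and 21 fell, with a median of -1.14, and without the first vemurafenib library 22 of 36 fell and 3 rose. The filter keeps a gene that is high in either group, so the 31 are not all members. SPRR2D, a cornified envelope protein, stood at 23.3, 19.7 and 20.5 CPM in control and at 0.26, 0 and 0.245 CPM after vemurafenib (log2 change -6.91). Keratin KRT15 fell from 18.1, 19.6 and 15.7 CPM to 0.78, 0.686 and 1.04 CPM (log2 change -4.40, standard error 0.25), and KRT14 from 3.52, 4.05 and 5.65 CPM to 0.65, 0.187 and 0.551 CPM. P-cadherin, CDH3, had 109 counts over the control group and 1 over the vemurafenib group, 113-fold lower with a counting interval of 19.9 to 4510. The tight junction protein CLDN1 rose by 1.38 on the log2 scale and the desmosomal cadherin DSC3 by 0.61. KRT14 and KRT15 are also keratinocyte markers, whose sum fell with this list as given above while CDH1 was at 0, and their part in the result was not tested.

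Clustered protocadherins were the most uniform group of adhesion genes. Protocadherins are cadherin-like surface proteins of neurons and glia, and most of their genes lie in 3 tandem clusters on chromosome 5. Of 62 tested protocadherins 37 rose and 1 fell, with a median of 0.96, and without the first vemurafenib library 41 rose and 1 fell, with a median of 1.10. All 15 tested genes of the beta cluster (chr5:141094615-141249365 in GRCh38.p14) rose, with a median of 1.40, and their summed mean level went from 153.7 to 353.9 CPM. In the alpha cluster (chr5:140786140-141012347) 10 of 15 rose, and in the gamma cluster (chr5:141330514-141512975) 8 of 21, with 0 lower in either. Of the 11 tested protocadherins outside the clusters 4 rose and 1 fell.

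Within the clusters PCDHGC3 had the largest change. It stood at 68.5, 75.7 and 96.6 CPM in control and 469.5, 513.2 and 407.7 CPM after vemurafenib, without overlap (log2 change 2.53, standard error 0.15). PCDHGA10 rose from 6.33, 5.84 and 5.65 CPM to 28, 35.2 and 29.1 CPM and PCDHB14 from 4.76, 3.78 and 4.24 CPM to 17.7, 23.3 and 18.4 CPM. Genes of the alpha and of the gamma cluster share constant exons, and the beta genes are close in sequence, so the split of reads between neighbours is uncertain. Outside the clusters PCDH20 rose from 1.11, 1.59 and 1.54 CPM to 3.38, 10.1 and 6.18 CPM, and PCDH15, part of the tip links of inner ear hair cells, fell from 5.87, 6.83 and 7.64 CPM to 1.24, 1.06 and 1.1 CPM (log2 change -2.58).

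**Figure D4:**
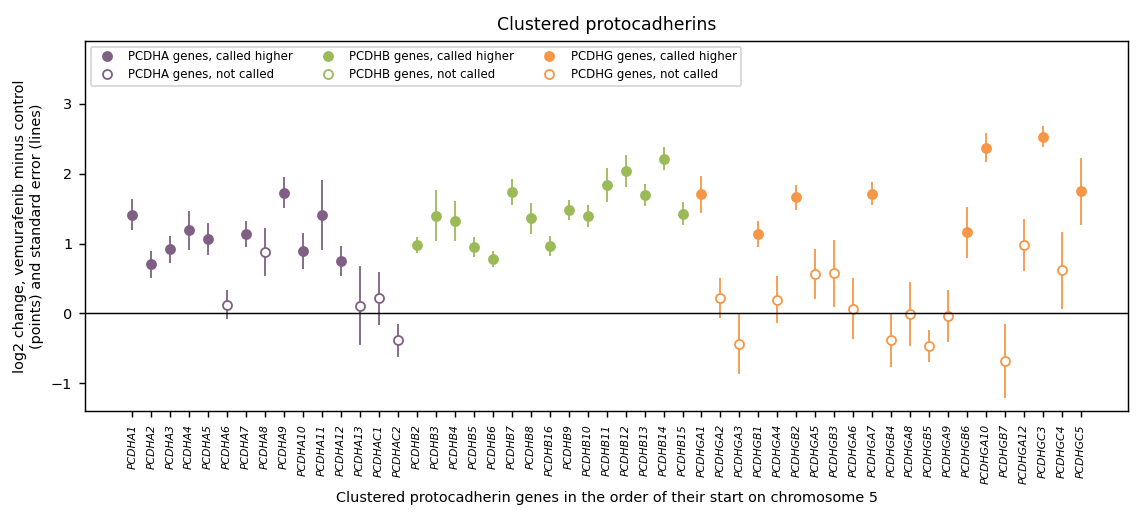
log2 change of vemurafenib minus control (points) with standard error (lines) for the 51 tested genes of the alpha, beta and gamma protocadherin clusters in the order of their starts on chromosome 5; filled points were called higher and open points were not called. All 15 beta genes are filled, and the gamma cluster mixes 8 filled with 13 open points.

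Integrins, the receptors that tie cells to matrix, were mostly lower. Of 20 tested members 11 fell and 2 rose, with a median of -1.31, and without the first vemurafenib library 12 of 21 tested fell and 2 rose. ITGB3, a partner of the alpha V chain in vitronectin receptors, fell from 651.4, 689.8 and 617.5 CPM to 32.9, 64.2 and 82.4 CPM (log2 change -3.45, adjusted p = 2.20e-06). ITGA1, the collagen-binding alpha 1 chain, fell from 885.8, 918.0 and 959.9 CPM to 49.3, 100.3 and 104.2 CPM (log2 change -3.44). ITGB4 of hemidesmosomes was at 44.2, 72.4 and 48 CPM in control and 0.715, 0.873 and 2.02 CPM after vemurafenib, a change of -5.49 that was -6.11 without vemurafenib replicate 3. The shared beta 1 chain, ITGB1, chosen after its values were seen, stood at 593.4, 601.7 and 615.3 CPM and 367.8, 566.2 and 626.8 CPM, overlapping ranges that did not pass the test (log2 change -0.21, standard error 0.16). The 2 that rose were ITGA11, a receptor for fibrillar collagen, from 1.63, 1.53 and 1.93 CPM to 11.4, 13.2 and 15.3 CPM, and ITGA4, whose change was 0.87.

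Ephrins and Eph receptors, which guide cells by contact, showed 10 falls and 0 rises among 18 tested members by edgeR's quasi-likelihood test, with a median of -0.55. At an unadjusted p under 0.05 0 rose and 11 fell, and DESeq2 called 0 rises and 11 falls. EPHA7 fell from 44.7, 39.5 and 46.9 CPM to 2.41, 3.87 and 3.98 CPM without overlap (log2 change -3.67, standard error 0.19). EPHA4 and the ligand EFNA3 had changes of -2.56 and -1.82. Among other guidance cues, semaphorins, plexins, netrins and slits showed 14 rises and 20 falls among 42 tested members. SEMA3C rose from 137.4, 172.5 and 157.3 CPM to 465.4, 1262 and 852.5 CPM while SEMA3A fell from 115.5, 121.8 and 96.9 CPM to 14.3, 23.4 and 29.6 CPM. The count of rises in that list was 8 without control replicate 1, control replicate 3 or vemurafenib replicate 2.

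Collagens moved in both directions. Of 35 tested members 14 rose (40.0%) and 9 fell (25.7%), with a median of 0.33, beside 22.0% and 22.9% of all tested genes. Per length the summed collagen TPM was 1894 to 1933 in the control libraries and 2018 to 2364 after vemurafenib. COL14A1, a collagen that decorates fibrils, rose from 0.196, 0.0664 and 0.257 CPM to 80.6, 53.1 and 43.6 CPM (log2 change 8.34, standard error 0.55). COL22A1, of tissue junctions, rose from 12.5, 6.3 and 4.11 CPM to 108.8, 100.5 and 62.4 CPM, and COL8A1 from 3.33, 2.46 and 2.89 CPM to 19.6, 27.2 and 33.4 CPM. COL6A3, a chain of microfibrils, fell from 91.3, 73.3 and 74.5 CPM to 3.58, 4.61 and 5.2 CPM (log2 change -4.15). Transmembrane COL13A1 had a change of -3.79. The summed fibroblast markers overlapped between the groups, with THY1 at 0 as given above, and their part in the collagen counts was not tested.

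Laminins and basement membrane genes showed 10 rises and 12 falls among 26 tested members. FREM2, a protein of the basement membrane, rose from 36.6, 35.8 and 37.3 CPM to 95, 239.9 and 214.4 CPM, and dystroglycan DAG1, a laminin receptor, from 270.4, 245.2 and 277.0 CPM to 767.5, 873.5 and 625.6 CPM (log2 change 1.52). LAMA3, a chain of the laminin that epithelia anchor to, fell with a log2 change of -2.81. The matrix glycoprotein fibulin 2, FBLN2, had 1 count over the control group and 433 over the vemurafenib group, a ratio of 417 with a counting interval of 74.4 to 16500.

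Proteoglycans and hyaluronan genes showed 13 rises and 17 falls among 44 tested members. Versican, VCAN, rose from 59.6, 42.9 and 44.8 CPM to 142.9, 304.2 and 224.5 CPM, and PRELP, a leucine-rich matrix protein, from 3.72, 3.92 and 3.85 CPM to 45.5, 57.5 and 26.1 CPM. CSPG4, the melanoma-associated chondroitin sulfate proteoglycan, fell from 1582, 1650.2 and 1270.5 CPM to 199.8, 176.4 and 269.5 CPM (log2 change -2.80, standard error 0.26). The hyaluronan synthase HAS2 fell from 34.9, 15.8 and 18.5 CPM to 0.585, 0.623 and 0.673 CPM (log2 change -5.18). Metalloproteases of the ADAM and ADAMTS families showed 14 rises and 5 falls among 31 tested members, with a median of 0.46. ADAMTS17 rose from 0.196, 0.597 and 0.706 CPM to 16.1, 23.2 and 18.1 CPM, whereas ADAM19 fell from 320.6, 346.5 and 368.9 CPM to 63.3, 75.9 and 83.7 CPM (log2 change -2.22).

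Receptor tyrosine kinases, the entry points of growth signals, showed 5 rises and 13 falls among 31 tested members, with a median of -0.14. MERTK, a receptor of the TAM family that binds bridging proteins on dying cells, rose from 1.3, 2.12 and 0.963 CPM to 39.7, 67.1 and 59.7 CPM (log2 change 5.24, adjusted p = 1.09e-07). Its family member AXL fell from 239.2, 242.1 and 246.9 CPM to 96.6, 99.1 and 116.6 CPM (log2 change -1.22), so the related pair moved in opposite directions. NTRK2, the receptor of brain-derived neurotrophic factor, rose by 3.36 on the log2 scale. FGFR1 fell from 72.1, 66.6 and 75.5 CPM to 11.7, 12.3 and 13.2 CPM, FGFR3 from 18.9, 19.97 and 19.8 CPM to 2.34, 1.93 and 3.73 CPM, and EGFR from 23, 32.1 and 33.4 CPM to 2.86, 10.04 and 9.55 CPM (log2 change -1.97). The discoidin receptor DDR2, which senses collagen, rose by 1.12.

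Wnt ligands, receptors and targets were mostly lower, with 5 rises and 21 falls among 36 tested members and a median of -0.62. Without the first vemurafenib library 6 rose and 26 fell. The ligand WNT9A fell from 12.8, 12.7 and 16.8 CPM to 0.52, 0.249 and 0.796 CPM (log2 change -4.73, standard error 0.28), and the receptor FZD7 from 55.1, 40.9 and 47.5 CPM to 8.91, 8.85 and 9.18 CPM. LGR4, the R-spondin receptor that raises Wnt signalling, rose from 11, 9.56 and 12 CPM to 44.2, 89.5 and 62.6 CPM (log2 change 2.59), and the secreted DKK3 rose by 1.87.

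Notch genes showed 3 rises and 15 falls among 29 tested members, with a median of -0.59. Among HES family members in the list, HES7 fell from 4.83, 10.1 and 6.35 CPM to 0.39, 0.436 and 0.306 CPM. HES2 had 280 counts over the control group and 2 over the vemurafenib group, 145-fold lower with a counting interval of 39.9 to 1210. The ligand JAG2 fell by 3.58 on the log2 scale. The 3 that rose included the target HEY1, from 8.35, 8.23 and 10.2 CPM to 22, 18 and 17.5 CPM, and ADAM10, the protease that cleaves Notch at the surface (log2 change 0.86).

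Genes of the TGF-beta and BMP pathways showed 7 rises and 24 falls among 48 tested members, with a median of -0.36. INHBA, which encodes the activin A subunit, fell from 1217, 1516 and 1206 CPM to 17.3, 30.1 and 50.4 CPM (log2 change -5.33, adjusted p = 4.70e-07). The ligand BMP8B fell from 46.7, 50.3 and 46.4 CPM to 4.81, 3.8 and 5.57 CPM (log2 change -3.33). TGFB2 and the co-receptor endoglin, ENG, rose by 1.48 and 1.05.

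Targets of YAP and TEAD showed 4 rises and 9 falls among 24 tested members, with a median of -0.29. IGFBP3, a binding protein of insulin-like growth factors, fell from 1853, 1745 and 1364 CPM to 43.7, 58.9 and 91.9 CPM (log2 change -4.67), and the surface nucleotidase NT5E from 320.9, 303.6 and 263.2 CPM to 24.5, 25.9 and 40.3 CPM. The classical target CCN2 stood at 24.6, 23.6 and 29.1 CPM in control and at 17.6, 33.4 and 29.5 CPM after vemurafenib, overlapping ranges that did not pass the test (log2 change 0.06, standard error 0.22). Serum response and actin genes showed 9 rises and 15 falls among 35 tested members. The actin crosslinkers ACTN1 and ACTN4 fell with log2 changes of -1.81 and -1.22, and the focal adhesion protein TNS3 rose from 89.1, 95.2 and 88.6 CPM to 301.8, 327.8 and 249.4 CPM (log2 change 1.69).

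Genes of the FOXO and PI3K feedback list showed 10 rises and 10 falls among 34 tested members. That is 29.4% each way, beside 22.0% and 22.9% of all tested genes. KLF9, a factor of quiescent cells, rose from 79.9, 71.1 and 68.4 CPM to 355.7, 540.05 and 385.0 CPM (log2 change 2.55), and SESN3, a brake on mTOR signalling, from 13, 15.7 and 13.5 CPM to 62.6, 124.6 and 60.03 CPM. PIK3R1, a regulatory subunit of PI3 kinase, rose by 2.28, while CCNG2, also a FOXO target, fell from 39.5, 45.1 and 62.7 CPM to 12, 17 and 12.4 CPM (log2 change -1.83). Genes of the cAMP pathway showed 5 rises and 17 falls among 36 tested members, with 3 rises without control replicate 2 or control replicate 3. The anchoring protein AKAP12 fell from 599.7, 547.5 and 585.8 CPM to 26.3, 56.6 and 63.4 CPM (log2 change -3.57, standard error 0.29).

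Clock and retinoid genes also moved. Of 21 tested clock genes 1 rose and 10 fell, with a median of -0.51. NPAS2, a partner of BMAL1 in the clock, fell from 248.9, 284.6 and 260.9 CPM to 35.1, 35.7 and 49.3 CPM (log2 change -2.73, adjusted p = 1.39e-07), the repressor BHLHE40 from 139.5, 107.4 and 178.8 CPM to 35.3, 37.9 and 38.4 CPM, and PER2, chosen after its values were seen, from 13.8, 13.8 and 10.7 CPM to 3.32, 4.11 and 3.43 CPM. The 1 that rose, NFIL3, had a change of 0.75 with an adjusted p of 0.013 that was 0.0613 without control replicate 2 and 0.0644 without vemurafenib replicate 2. Among 14 tested genes of retinoid handling 4 rose and 6 fell. The retinoic acid receptor RARB rose from 0.783, 1.06 and 1.67 CPM to 9.49, 12.9 and 9.73 CPM, and STRA6, which takes up retinol, fell from 419.7, 327.4 and 277.2 CPM to 140.3, 116.9 and 118.7 CPM (log2 change -1.45).

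Genes of glycolysis and of the response to low oxygen fell together. Of 44 tested members 36 fell and 1 rose, with a median of -1.06, and without the first vemurafenib library 37 fell and 1 rose, with a median of -1.17. Per length, the summed TPM of the list was 38490 to 42410 in the control libraries and 19740 to 21960 after vemurafenib, without overlap. CA9, a surface carbonic anhydrase induced by hypoxia-inducible factors, stood at 247.2, 272.1 and 184.4 CPM in control and 0.52, 5.11 and 2.75 CPM after vemurafenib (log2 change -6.38, standard error 0.44, and -7.14 without vemurafenib replicate 2). BNIP3, a mitophagy receptor induced by hypoxia, fell from 367.6, 522.6 and 413.9 CPM to 51.9, 66.2 and 73.5 CPM (log2 change -2.77).

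Enzymes of the glycolytic chain fell less steeply but from high levels. LDHA, which turns pyruvate into lactate, was at 2639, 2766 and 2533 CPM in control and 906.8, 746.4 and 979.4 CPM after vemurafenib (log2 change -1.59, adjusted p = 1.64e-06). GAPDH fell from 11358, 12635 and 10415 CPM to 8026, 5409.6 and 6253 CPM (log2 change -0.81) and ENO1 from 3953, 4152 and 3869.8 CPM to 2243, 1559.8 and 1659 CPM (log2 change -1.13), and in both the first vemurafenib library was the highest of its group. VEGFA, the angiogenic target of hypoxia-inducible factors, had a smaller change of -0.71. The 1 gene that rose, the oxygen sensor EGLN3, stood at 0.13, 0.531 and 0.513 CPM in control and 0.976, 1.06 and 1.1 CPM after vemurafenib. Its adjusted p of 0.027 was 0.0971 without control replicate 1, 0.0593 without vemurafenib replicate 2 and 0.061 without vemurafenib replicate 3. In the cisplatin libraries LDHA averaged 936.2 ± 61 CPM (SD, n = 3), and the vemurafenib minus cisplatin difference of -0.09 (standard error 0.12) did not pass the test. Over the list 11 members were higher and 8 lower than in cisplatin, with a median of 0.11, where 23.0% and 20.8% of all tested genes were called higher and lower.

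**Figure D5:**
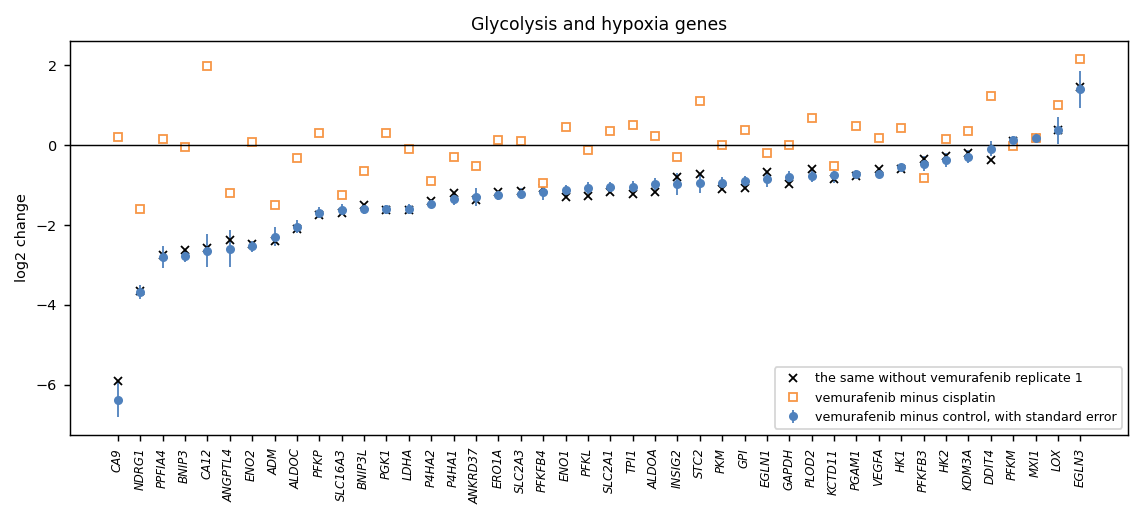
log2 change of vemurafenib minus control with standard error (blue circles), without vemurafenib replicate 1 (crosses) and of vemurafenib minus cisplatin (orange squares) for the 44 tested glycolysis and hypoxia genes, ordered by the first. Against control 36 of the 44 were called lower, with CA9 lowest at -6.38, while the squares lie on both sides of 0.

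Hypoxia-inducible factors are known to bind the core letters ACGTG. That motif was searched on both strands, that is ACGTG or CACGT, in the same 250-base windows. The 2 forms overlap within CACGTG, which counts as 2 matches. A match was found in 28.5% of the 11320 tested genes with an entry, in 18.5% of all promoter windows, and in 27 of 40 glycolysis and hypoxia genes (67.5%). Of the 32 members of that list that were called lower and had an entry, 21 held a match (65.6%), a share close to that of the whole list. A gene counted if any of its windows matched, so the share of windows is in another unit than the shares of genes. Among all genes called lower the share was 28.8%, and among those called higher 29.7%. The windows of CA9 (chr9:35673678-35673927, plus strand) and LDHA (chr11:18394313-18394562, plus strand) are shown because CA9 fell the furthest in the list and LDHA is one of its abundant enzymes. For each gene the first window that held a match was printed, so the presence of a match was set by that choice. Capitals mark the matches, 1 in CA9 at 18 bases upstream of the start and 5 in LDHA between 185 and 73 bases upstream.
CA9: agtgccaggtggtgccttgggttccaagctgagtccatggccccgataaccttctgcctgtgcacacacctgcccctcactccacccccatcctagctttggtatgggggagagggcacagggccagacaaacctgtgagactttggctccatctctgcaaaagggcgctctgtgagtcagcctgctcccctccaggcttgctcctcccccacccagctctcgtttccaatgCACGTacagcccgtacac
LDHA: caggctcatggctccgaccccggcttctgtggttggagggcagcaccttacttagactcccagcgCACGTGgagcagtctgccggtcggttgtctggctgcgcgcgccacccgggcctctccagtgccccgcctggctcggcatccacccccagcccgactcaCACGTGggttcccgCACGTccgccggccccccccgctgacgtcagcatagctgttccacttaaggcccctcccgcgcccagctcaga

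Genes of the citrate cycle and pyruvate handling were called no more often than all tested genes. Of 38 tested members 8 rose (21.1%) and 7 fell (18.4%), with a median of -0.04, and without the first vemurafenib library 9 rose and 12 fell (5 rose without control replicate 3). PDK1 and PDK4, kinases that switch off pyruvate dehydrogenase, fell from 71.7, 90.7 and 90.5 CPM to 11.7, 16.4 and 19 CPM and from 40.4, 46.6 and 39.8 CPM to 7.61, 20.6 and 14.5 CPM. The mitochondrial pyruvate carrier subunit MPC1 rose from 13.4, 11.3 and 13 CPM to 24, 20.9 and 22.9 CPM (log2 change 0.84), and the malic enzyme ME1 rose by 1.05.

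Subunits of the respiratory chain rose more often than they fell, but the median of complexes II to V was 0.02 without the first vemurafenib library. The number called changed when single libraries were left out. Of 36 tested subunits of complex I 14 rose and 1 fell, with a median of 0.37. Without the first vemurafenib library 10 rose and 2 fell with a median of 0.18, and the rises numbered 6, 3 and 5 without control replicates 1, 2 and 3. Over all tested genes the rises numbered 2519, 2402 and 2378 without those control replicates, against 3082 with all libraries. The summed TPM of complex I was 5518 to 6014 in control, 8596 in the first vemurafenib library and 6985 and 6990 in the second and the third. Subunits of complexes II to V showed 13 rises and 2 falls among 42 tested, 9 and 4 without the first vemurafenib library, and 6, 5 and 6 rises without control replicates 1, 2 and 3. Their median was 0.22 with all libraries and 0.02 without the first vemurafenib library. Per length their summed TPM was 13800 to 14240 in control and 18430, 15600 and 16370 in vemurafenib replicates 1, 2 and 3. ATP5MC1, a ring subunit of ATP synthase, stood at 30.8, 27 and 34 CPM in control and 87.9, 49.3 and 51.9 CPM after vemurafenib, highest in the first library (log2 change 1.04, and 0.73 without it). NDUFB8 of complex I fell, from 171.1, 161.4 and 138.4 CPM to 110.7, 74.8 and 78.6 CPM. The median effective length was 657 bases for complex I and 748 bases for complexes II to V, against 2923 bases for all tested genes. With a correction for length 17 subunits of complex I rose and 3 fell, and 14 and 4 of complexes II to V.

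Calls of cytosolic ribosomal proteins depended on the first vemurafenib library. With all libraries 1 of 84 tested members rose (4 without vemurafenib replicate 2) and 2 fell, with a median of -0.19, and without the first vemurafenib library 1 rose and 67 fell, with a median of -0.42. Their summed TPM was 226300 to 251800 in control, 256300 in the first vemurafenib library and 209400 and 210500 in the second and the third. Their median effective length was 597 bases. RPL10 stood at 2333, 2312 and 2039 CPM in control and 2019, 1265 and 1282 CPM after vemurafenib (log2 change -0.55, adjusted p = 0.03), with an adjusted p of 0.0852 to 0.0975 when control replicate 1 or 2 or vemurafenib replicate 2 or 3 was left out. The other fall was not called then either. With a correction for length 1 rose and 59 fell, and with the replicate block 12 fell. Ribosomal protein genes have many processed copies, so their counts are uncertain. Mitochondrial ribosomal proteins went from 11 rises (14.3%) and 3 falls (3.9%) among 77 to 11 and 15 without that library, and to 6 rises without control replicate 2. The shares over all tested genes were 22.0% and 22.9%. Genes of ribosome biogenesis showed 13 rises (26.0%) and 1 fall (2.0%) among 50 tested, 17 and 3 without the first vemurafenib library, and 8 rises without control replicate 2.

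Lysosomal genes rose. Of 71 tested hydrolases, membrane proteins and proton pump subunits 38 rose and 11 fell, with a median of 0.44, and without the first vemurafenib library 40 rose and 11 fell. Their summed TPM was 6280 to 6530 in control and 9030 to 10300 after vemurafenib, without overlap. Cathepsin K, CTSK, a collagen-cutting protease, rose from 10.9, 10.7 and 8.47 CPM to 83.5, 79.8 and 71.4 CPM (log2 change 2.96, adjusted p = 4.79e-08). The acid lipase LIPA rose from 43.2, 52.6 and 47.7 CPM to 120.9, 138.4 and 141.2 CPM. The steepest fall of the list was in a subunit of the proton pump: ATP6V0A4, an isoform best known from kidney, went from 84.5, 78.6 and 61.9 CPM to 1.04, 0.748 and 1.16 CPM (log2 change -6.24, standard error 0.23). Against cisplatin 9 members of the list were higher and 26 lower, with a median of -0.29. Over all tested genes 23.0% were higher and 20.8% lower than in cisplatin.

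Protein folding and degradation changed less. Genes of folding in the endoplasmic reticulum showed 9 rises and 2 falls among 30 tested, and HYOU1 rose from 264.4, 263.3 and 298.0 CPM to 466.2, 456.3 and 489.1 CPM while EDEM1, which sorts misfolded glycoproteins for removal, fell from 233.5, 181.1 and 223.5 CPM to 61.1, 79.4 and 81.9 CPM. Cytosolic chaperones showed 11 rises (26.8%) and 3 falls (7.32%) among 41, beside 22.0% and 22.9% of all tested genes. The rises were 7 without control replicate 1, control replicate 2 or vemurafenib replicate 3, and the falls were 6 without the first vemurafenib library. The small heat shock protein CRYAB rose from 1.7, 0.465 and 1.28 CPM to 13.3, 11 and 8.69 CPM. Proteasome subunits showed 12 rises (26.1%) and 0 falls among 46 by edgeR (15 and 1 at an unadjusted p under 0.05, 12 and 1 by DESeq2). The counts were 11 and 4 without the first vemurafenib library, and the rises were 4 without control replicate 2.

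Lipid genes were mixed. Genes of sterol and fatty acid synthesis showed 5 rises and 15 falls among 40 tested, with 3 rises without control replicate 1 or control replicate 3. STARD4, a carrier of cholesterol, fell from 29.3, 34.6 and 37.7 CPM to 3.58, 9.91 and 10.04 CPM. Genes of fatty acid oxidation showed 12 rises (30.0%) and 7 falls (17.5%) among 40, beside 22.0% and 22.9% of all tested genes. SLC25A20, which carries acylcarnitines into mitochondria, rose from 19.2, 17.7 and 18.2 CPM to 42.1, 43.4 and 37.7 CPM (log2 change 1.16). Genes of lipid transport showed 8 rises and 10 falls among 31, and the fatty acid-binding protein FABP7 of glia rose from 2.28, 3.65 and 2.57 CPM to 25.7, 22.6 and 23 CPM (log2 change 3.07). PLIN2, which coats lipid droplets, fell from 580.6, 811.0 and 792.7 CPM to 135.7, 123.5 and 153.9 CPM, and the acyl-CoA synthetase ACSL3 from 344.5, 381.1 and 372.2 CPM to 68.2, 82.7 and 123.2 CPM.

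Amino acid and polyamine genes were lower more often than higher. Of 30 tested amino acid transporters 6 rose and 13 fell, and 10 rose and 13 fell without the first vemurafenib library. The leucine transporter SLC7A5 fell from 617.2, 637.3 and 660.8 CPM to 194.9, 221.2 and 263.8 CPM (log2 change -1.49), and the cystine transporter SLC7A11 from 120.4, 79.7 and 71.3 CPM to 8.97, 22.9 and 24.4 CPM. Among those that rose, SLC1A4, a carrier of serine and alanine, went from 105.5, 81.9 and 74.6 CPM to 236.7, 223.2 and 201.1 CPM. Of 16 tested polyamine and arginine genes 1 rose and 10 fell, with 6 falls without control replicate 2. The entry enzyme ODC1 fell from 80.7, 67.4 and 62.6 CPM to 18.1, 20.3 and 22.8 CPM, the catabolic enzyme SAT1 from 195.1, 224.3 and 149.5 CPM to 24.7, 31.2 and 32.7 CPM (log2 change -2.68), and the spermidine synthase SRM, the 1 that rose, went from 110.1, 104.3 and 131.1 CPM to 543.6, 316.5 and 272.2 CPM.

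Glutathione, iron and redox genes showed 16 rises and 6 falls among 46 tested, with 10 falls without the first vemurafenib library and 3 without control replicate 2. FTL, the light chain of the iron store ferritin, rose from 574.2, 619.1 and 594.6 CPM to 1567, 1296 and 928.4 CPM, and mitochondrial SOD2 from 109.4, 154.3 and 111.0 CPM to 293.3, 372.9 and 226.5 CPM. Extracellular SOD3 fell from 26.7, 25 and 21.1 CPM to 5.79, 3.43 and 4.1 CPM (log2 change -2.45). Metallothioneins were a separate list with 2 tested members, of which 1, MT1X, rose. The other, MT2A, fell from 629.7, 656.2 and 667.9 CPM to 225.5, 162.8 and 200.2 CPM. FTL and MT2A have near-identical copies, so their counts are uncertain.

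Transporters of the ABC family showed 14 rises and 7 falls among 36 tested. All 5 tested members of the ABCA5 to ABCA10 group (chr17:68867289-69327133 in GRCh38.p14) rose, with a median of 2.39. ABCA8, a lipid transporter, went from 1.17, 0.465 and 1.22 CPM to 11.1, 14.9 and 14.1 CPM (log2 change 3.79), and ABCA6 from 1.56, 1.79 and 1.03 CPM to 5.98, 7.61 and 9.42 CPM. ABCA9, ABCA10 and ABCA5 had changes of 2.71, 1.09 and 1.02, of which the last 2 genes were chosen after their values were seen. Their coding sequences are close, so reads may be split between them. Against cisplatin ABCA8 changed by 0.08 (standard error 0.20) and did not pass.

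Ion channels had medians near 0. Among 39 tested potassium channels 8 rose (20.5%) and 13 fell (33.3%, and 8 falls without control replicate 1), with a median of -0.03. Among 55 sodium, calcium and chloride channels 13 rose (23.6%, and 8 rises without control replicate 3) and 16 fell (29.1%), with a median of 0.01. Among all tested genes 22.0% rose and 22.9% fell. TRPM3, a heat- and steroid-gated cation channel, rose from 2.67, 2.99 and 2.37 CPM to 24, 42.6 and 34 CPM (log2 change 3.64), while TRPV4, gated by stretch, fell from 125.7, 126.2 and 118.3 CPM to 42.9, 34 and 41.4 CPM. The voltage-gated subunit KCNS3 rose from 34.3, 31.7 and 23.9 CPM to 147.3, 141.3 and 123.9 CPM, and the calcium-activated channel KCNN4 fell from 183.0, 170.5 and 173.2 CPM to 38, 30.6 and 44.1 CPM (log2 change -2.22).

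Among genes of the nucleus, histones showed 13 rises and 4 falls in 39 tested members, with a median of 0.78, and 18 rises and 9 falls without the first vemurafenib library. The linker histone H1-2 rose from 8.67, 10.9 and 9.88 CPM to 38.2, 28.1 and 27.2 CPM and H2BC12 from 19.8, 16.1 and 16.6 CPM to 64.6, 47.5 and 52.5 CPM. Most replication-dependent histone transcripts end without a poly(A) tail and have near-identical copies, so their counts are uncertain.

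Writers and erasers of chromatin marks showed 5 rises and 21 falls among 62 tested, 10 and 30 without the first vemurafenib library, and 13 falls without control replicate 3. The acetyltransferase KAT2B had the largest rise of the list, from 45.6, 48.2 and 41.2 CPM to 352.6, 572.5 and 378.1 CPM (log2 change 3.27, adjusted p = 2.82e-07). The demethylase KDM5B and the methyltransferase NSD2 fell by 0.87 and 1.01 on the log2 scale. The 477 tested zinc finger genes named ZNF were called less often than all tested genes. They showed 83 rises (17.4% against 22.0%) and 34 falls (7.13% against 22.9%). Those counts were 122 and 48 without the first vemurafenib library, and the rises were 44 without control replicate 3. Their median was 0.12.

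Complement genes showed 8 rises and 1 fall among 20 tested, with a median of 0.56, and 9 rises and 3 falls without the first vemurafenib library. Per length their summed TPM overlapped, at 1023 to 1073 in control and 847.2 to 1132 after vemurafenib. The protease C1S of the classical pathway rose from 1.96, 1.33 and 0.834 CPM to 31.9, 26.6 and 15.8 CPM (log2 change 4.16, standard error 0.32). Of the alternative pathway, factor B, CFB, rose from 0.717, 0.465 and 0.385 CPM to 4.36, 5.3 and 3.43 CPM. CD55, the membrane protein that disassembles complement convertases, fell from 497.5, 450.8 and 493.7 CPM to 42.3, 54.2 and 92.3 CPM (log2 change -2.93).

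The steepest rises by fold included several genes that were silent in control. ANGPTL7, an angiopoietin-like secreted protein, had 0 counts in the control group and 2247 after vemurafenib, at least 721-fold higher, but its vemurafenib libraries stood at 55.9, 78.7 and 7.71 CPM. The third of them was far below the first and second, and every one was above control. FGL2, a fibrinogen-like protein, had 0 and 212 counts, at least 68-fold higher. The GABA receptor subunit GABRB1 rose from 0, 0.265 and 0.0642 CPM to 14, 21.7 and 9.61 CPM, a log2 change of 7.01 that was 8.54 without control replicate 2. At the other end ZP4, an egg coat protein, had 427 counts over the control group and 2 over the vemurafenib group, 222-fold lower with a counting interval of 61 to 1840. The cytokine CSF2 fell from 16.5, 41 and 26.3 CPM to 0.26, 0.187 and 0.612 CPM (log2 change -6.26, and -6.93 without vemurafenib replicate 3), and the adapter SH2D2A from 10.1, 16 and 15 CPM to 0.325, 0.125 and 0.184 CPM (log2 change -5.97).

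Genes were also ranked per length by the difference in mean TPM, a measure that picks abundant genes. CD74, the invariant chain of MHC class II, went from 2942 ± 85.9 TPM (SD, n = 3) in control to 9040 ± 1262 TPM after vemurafenib. IFITM3, an antiviral membrane protein, went from 705.2 ± 58.8 TPM to 3452 ± 595.0 TPM, and SPARC, a collagen-binding matrix protein, from 1934 ± 70.3 TPM to 3603 ± 459.3 TPM. The secreted protease inhibitor SERPINE2 went from 7103 ± 728.1 TPM to 1652 ± 629.2 TPM, and the intermediate filament vimentin, VIM, from 5680.5 ± 316.6 TPM to 2326 ± 147.6 TPM. All 5 also passed the count test, with log2 changes of 1.55, 2.22, 0.80, -2.24 and -1.37.

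Single calls that rest on the first vemurafenib library are illustrated by genes near the threshold. TIAF1, at 0.848, 1.46 and 1.03 CPM in control and 8.58, 1.37 and 1.59 CPM after vemurafenib, was called higher with an adjusted p of 0.04 and had a log2 change of 1.78 that was 0.42 without that library. The call was also lost without any 1 of the control libraries (adjusted p of 0.072 to 0.121) or of the cisplatin libraries, which share the estimate of spread (0.0512 to 0.0541). Only the first of its vemurafenib libraries lay above the control range by more than 1 CPM. In the other direction the protocadherin PCDHA8, at 2.35, 3.58 and 3.15 CPM and 3.19, 9.1 and 4.34 CPM, was not called with all libraries (adjusted p = 0.056) and was called higher without it (log2 change 1.15), without vemurafenib replicate 3 (adjusted p = 0.0434) and in the fit with the replicate block (adjusted p = 0.0374). CD24, a surface sialoglycoprotein, was called lower with an adjusted p of 0.032, which was 0.0756 without the first vemurafenib library and 0.0739 to 0.151 without control replicate 2, control replicate 3 or vemurafenib replicate 2.

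Cells collected after cisplatin differed from those after vemurafenib in several of these lists. Over all tested genes 23.0% were higher after vemurafenib than after cisplatin and 20.8% were lower. Drug, dose and exposure all differ between the 2 groups, as does drug-free time if day 7 counts from the start of treatment. Their parts cannot be told apart. Schwann and neural crest genes were higher than in cisplatin for 20 of 30 members and lower for 7, and NGFR averaged 0.905 ± 0.255 CPM (SD, n = 3) there (vemurafenib minus cisplatin 7.67, adjusted p = 7.95e-09). The summed TPM of that list overlapped between the drug groups, at 4820 to 5559 after vemurafenib and 5210 to 5591 after cisplatin, with 2646 to 2919 in control. Of the 20 tested integrins 2 were higher and 11 lower than in cisplatin, and ITGA1 averaged 475.5 ± 31.2 CPM there (difference -2.49). INHBA averaged 1345 ± 249.2 CPM in cisplatin (difference -5.36, adjusted p = 3.09e-07). The 62 tested protocadherins were called less often than all tested genes, higher than in cisplatin for 11 and lower for 7, with a median of 0.22. PCDHB14 differed by 0.20 (standard error 0.15), which did not pass. Histones were lower than in cisplatin for 22 of 39 members and higher for 5, with a median of -1.15.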

How the data were processed

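RNA-seq was measured in 9 libraries of A375 cells, grouped by the submitters' labels. The submitters' processing notes name HISAT2 2.0.4 and hg38. How reads were assigned to genes is not given in the sources used here. Estimated counts, TPM and FPKM were deposited for 18430 genes. TPM and FPKM are the authors' normalized values, per the file headers. Between 13.6% and 14.1% of the deposited estimated counts in a library were not whole (tolerance 1e-06), and all were rounded. TPM was used for levels and alternatives, and the ratio of counts to FPKM gave each gene's effective length. RefSeq (GRCh38.p14) matched 18153 identifiers and supplied coordinates and promoter windows, and 26 symbols that had become dates were replaced through their identifiers. No label states that strand was marked, so overlapping antisense genes cannot be told apart.

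Genes were kept by filterByExpr, scaled by TMM and fitted as group means over all 9 libraries with edgeR 4.0.16 in R 4.3.3 (6 residual degrees of freedom, biological coefficient of variation 0.139). The two-sided quasi-likelihood F test was adjusted by Benjamini-Hochberg at 0.05, and the standard error is the log2 change divided by the square root of F. Folds against a group at 0 use a floor of 3 counts over the group, and ratios with 1 to 3 counts carry an exact 95% binomial interval. Both cover counting error only, since without molecular identifiers PCR copies cannot be told from independent molecules. Alternatives were DESeq2 1.42.0 size factors and its Wald test, total-count scaling, no count filter, a filter of 1 CPM, only the 2 groups compared, limma 3.58.1 on log2(TPM + 1) and log2(TPM + 0.1), a length correction (lowess span 0.3), the replicate block, and leaving out each library. The code was tested on simulated data.

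The main fit has no replicate block. The fit with the block is given beside the results it changes, since same-numbered control and vemurafenib libraries deviated together (r across genes of 0.18, 0.14 and 0.18, against -0.17 to -0.02 for other numbers). That pairing comes from the data and not from the labels. No 2 libraries agreed within sampling noise. The lists, and the comparison itself, were chosen with earlier results of these data known. Genes were named by rule: the 10 largest rises and falls with at least 50 counts in the higher group, no overlap and the same call without vemurafenib replicate 1, the 5 largest TPM shifts each way, up to 4 called members of each list in each direction or any member where 5 or fewer were called, a fixed panel, and up to 5 genes each way whose call depends on that replicate. Genes outside it are marked as chosen after their values were seen. Some genes that the rule names are not reported here.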

Additional observations from a re-analysis of the deposited data

How the results depend on the processing

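Over 21 alternatives the numbers of genes higher and lower after vemurafenib stayed within 1.5 times the main counts of 3082 and 3200, in ranges of 2378 to 3972 and 2318 to 3956. Leaving out 1 library at a time gave 2378 to 3716 higher and 2661 to 3956 lower against control, and 2433 to 3755 higher and 2334 to 3402 lower against cisplatin. The replicate block called 3195 higher and 3348 lower against control, the block with length correction 3465 and 3795, the length correction alone 3342 and 3631, and a fit of only the 2 groups compared 2520 and 2765. The replicate block moved neither count over 1.5 times. Of 175 named genes 163 kept their direction and side of the threshold under all alternatives in which they were tested. An alternative that gave a gene no value, for example through its filter, was not counted for that gene. The direction of 3 genes that did not pass reversed. Without 1 library at a time SOX10 ranged from -0.024 (control replicate 3) to 0.090 (control replicate 1), PMEL from -0.153 (vemurafenib replicate 1) to 0.080 (control replicate 2) and CCN2 from -0.140 (vemurafenib replicate 2) to 0.286 (vemurafenib replicate 1). PMEL was 0.062 under total counts, and CCN2 was -0.032 under the replicate block with length correction. The cause was not tested. With 3 libraries a group and 6 residual degrees of freedom, small changes in low genes were not detectable, and silent genes have only bounds.

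Among the lists whose counts are given here, those that moved by more than 1.5 times and by more than 1 gene under alternatives that keep every library were these, and lists not named did not. Scaling by total counts moved rises from 7 to 11 in TGF-beta and BMP pathway genes, from 14 to 24 in complex I subunits, from 11 to 21 in mitochondrial ribosomal proteins, from 8 to 13 in citrate cycle and pyruvate genes, from 1 to 3 in polyamine and arginine genes, from 1 to 3 in cytosolic ribosomal proteins, from 13 to 22 in ribosome biogenesis genes, from 9 to 16 in endoplasmic reticulum folding genes, from 12 to 20 in proteasome subunits, from 83 to 128 in zinc finger genes named ZNF and from 5 to 9 in epigenetic writers and erasers. Scaling by total counts moved falls from 21 to 13 in epigenetic writers and erasers. Fitting only the 2 groups compared moved rises from 5 to 3 in cAMP pathway genes, from 14 to 9 in complex I subunits, from 13 to 5 in complex II to V subunits and from 11 to 7 in mitochondrial ribosomal proteins. Testing log2 TPM in its 3 forms (pseudocount 1, the same with no filter, or 0.1) moved rises from 14 to a range of 9 to 10 in semaphorins, plexins, netrins and slits, from 5 to 3 in cAMP pathway genes, from 4 to a range of 2 to 6 in retinoid handling genes, from 14 to a range of 26 to 27 in complex I subunits, from 13 to a range of 23 to 24 in complex II to V subunits, from 11 to a range of 24 to 26 in mitochondrial ribosomal proteins, from 1 to a range of 2 to 3 in polyamine and arginine genes, from 1 to a range of 4 to 5 in cytosolic ribosomal proteins, from 12 to a range of 21 to 22 in proteasome subunits, from 13 to a range of 14 to 20 in replication-dependent and variant histones and from 5 to 8 in epigenetic writers and erasers. Those 3 forms moved falls from 4 to 2 in melanosome and pigment genes, from 15 to a range of 8 to 11 in synapse and vesicle release genes, from 21 to a range of 13 to 21 in Wnt ligands, receptors and targets, from 9 to a range of 5 to 6 in YAP and TEAD targets, from 17 to a range of 11 to 13 in cAMP pathway genes, from 9 to a range of 4 to 7 in collagens, from 12 to a range of 7 to 9 in laminins and basement membrane genes, from 5 to a range of 3 to 5 in ADAM and ADAMTS proteases, from 2 to a range of 3 to 5 in cytosolic ribosomal proteins, from 11 to a range of 7 to 8 in lysosomal hydrolases and proton pump, from 4 to a range of 6 to 7 in replication-dependent and variant histones, from 34 to a range of 12 to 14 in zinc finger genes named ZNF, from 21 to a range of 8 to 11 in epigenetic writers and erasers and from 6 to a range of 3 to 4 in cilium genes. The length correction, alone or with the replicate block, moved rises from 5 to 10 or 11 in epigenetic writers and erasers. The length correction, alone or with the replicate block, moved falls from 1 to 3 in complex I subunits, from 2 to 4 in complex II to V subunits, from 3 to 10 or 11 in mitochondrial ribosomal proteins, from 2 to 59 or 65 in cytosolic ribosomal proteins, from 3 to 5 in cytosolic chaperones, from 0 to 4 in proteasome subunits, from 4 to 8 or 9 in replication-dependent and variant histones and from 34 to 48 or 53 in zinc finger genes named ZNF. The replicate block alone moved falls from 2 to 12 in cytosolic ribosomal proteins.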

Other observations

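Several groups outside those described above are given as counts beside 22.0% of all tested genes higher and 22.9% lower. Of 57 tested cilium genes 19 rose and 6 fell. The axonemal dynein DNAH5 rose from 2.35, 3.78 and 2.82 CPM to 6.7, 8.42 and 17.4 CPM, and PTCH1, the Hedgehog receptor of the primary cilium and itself a Hedgehog target, fell from 33.6, 29 and 38.3 CPM to 4.55, 7.23 and 8.75 CPM (log2 change -2.29, edgeR adjusted p = 4.29e-06). Of 39 tested SOX and FOX transcription factors 7 rose and 16 fell, with a median of -0.37. SOX4 rose from 21, 23.9 and 26.4 CPM to 59.2, 66.3 and 42 CPM while its relative SOX11 fell from 44.7, 46 and 48.7 CPM to 12.9, 9.91 and 13.5 CPM (log2 change -1.94, standard error 0.14).

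Of 23 tested cytosolic tRNA synthetases 9 rose and 1 fell (2 fell without vemurafenib replicate 1), with a median of 0.23. Leucyl-tRNA synthetase LARS1 rose from 210.3, 226.2 and 215.6 CPM to 274.4, 346.4 and 353.3 CPM. Among 33 tested nuclear hormone receptors 5 rose (15.2%) and 9 fell (27.3%), close to the shares over all tested genes. The orphan receptor NR2F1 rose from 7.17, 8.63 and 12.6 CPM to 33.5, 35.9 and 21.1 CPM, and RORA, which also drives the clock, fell from 14.4, 16.5 and 20.03 CPM to 2.02, 4.05 and 4.83 CPM (log2 change -2.21). The alpha tubulin TUBA1A, which has close paralogues, rose from 145.0, 138.4 and 125.1 CPM to 838.6, 730.1 and 526.5 CPM (log2 change 2.36, standard error 0.19), and the 3 vemurafenib libraries were all above the 3 control libraries.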
